A study of Mus musculus with 16 samples.

Results

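Transcripts of T, NK and B lymphocytes were examined in mouse lung myeloid cells sorted by flow cytometry on CD11b, CD11c and MHC class II, which the labels call CD11b+ DCs (dendritic cells). The members were chosen by name, 14 genes typical of T cells, 10 of NK cells and 10 of B cells. A gene was included where a probe set of the array carried its symbol alone, and the probe set with the highest mean over the 16 arrays was taken where there were several. By this rule 32 of the 34 genes were measured, 12 of T cells, 10 of NK cells and 10 of B cells, among 19938 genes in all. Lck and Trbc1 had no such probe set and were not analysed here.

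The 16 whole-transcript arrays fell into 8 labelled tumoral and 8 labelled peritumoral, and the comparison asked how the sorted cells of the tumour differed from those of the lung tissue beside it. Every array came from immunocompetent C57BL/6 mice whose airways had received syngeneic Lewis lung carcinoma (LLC) cells, so the peritumoral arrays were also of tumour-bearing lungs, and tumour-free lung was not analysed here. The labels give no animal, pool, age or sort purity for an array. The titles were taken as given, since whether each belongs to its array could not be checked from the values, and every difference between the labels rests on them. The p-values therefore measure the spread between these arrays, which may in part be technical. All values are log2 expression values, and all differences are tumoral minus peritumoral on the log2 scale.

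T cells recognise peptide on MHC molecules through the T cell receptor, whose signal is carried inward by the CD3 chains. B cells bind intact antigen through a surface immunoglobulin that signals through CD79A and CD79B. NK cells kill without a rearranged receptor, using activating and inhibitory receptors and granules that hold perforin and granzymes. Mature T and B cells are not defined by CD11c or CD11b, and the same is not claimed here for NK cells. These genes serve as markers of lymphocyte RNA in a myeloid sort, although some are also transcribed by other cells.

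The sorting markers were measured in every array, and peritumoral 4 stood apart from the other 15 arrays. Itgax, which encodes CD11c, ranged from 11.07 to 11.79, and H2-Ab1, an MHC class II gene, from 13.06 to 13.38. Itgam, which encodes CD11b, ranged from 10.18 to 11.80. Peritumoral 4 had the lowest value of both Itgax (11.07) and Itgam (10.18). The level of a list in an array is given here as the median, over its genes, of how far the log2 value lay from the gene's own median over all 16 arrays. In peritumoral 4 this level was 3.54 for 12 endothelial markers, 2.11 for 12 fibroblast markers, 1.66 for 14 epithelial markers and 1.61 for 10 neutrophil markers, the highest of any array for each. It was -0.32 for 11 markers of the sorted myeloid cells, and -0.35 in peritumoral 6. Peritumoral 7 was next for endothelial (1.34) and fibroblast (0.51) markers, and peritumoral 5 for neutrophil markers (1.33). Differences between the labels are therefore given with and without peritumoral 4. No detection calls were used here, so a low value cannot be told apart from probe background.

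Peritumoral 4 had the highest value of all 16 arrays for 30 of the 32 lymphocyte members, against 15% of all genes. In 20 members it lay more than 1 log2 unit above every other array, against 2.74% of all genes. These were 5 of 12 T cell, 8 of 10 NK cell and 7 of 10 B cell members. The 2 members that were not highest there were Cd4 and Klrd1. The list level in peritumoral 4 was 1.58 for T cell, 2.18 for NK cell and 1.98 for B cell members. In the tumoral arrays the levels ran from -0.40 to 0.17, from -0.21 to 0.28 and from -0.58 to 0.21. The members of all 3 lineages were high in the same array as the endothelial, fibroblast and epithelial markers, and the part of those cells in the result was not tested. In a bulk sample such as this, fewer cells of a type and less RNA per cell cannot be told apart.

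**Figure D1:**
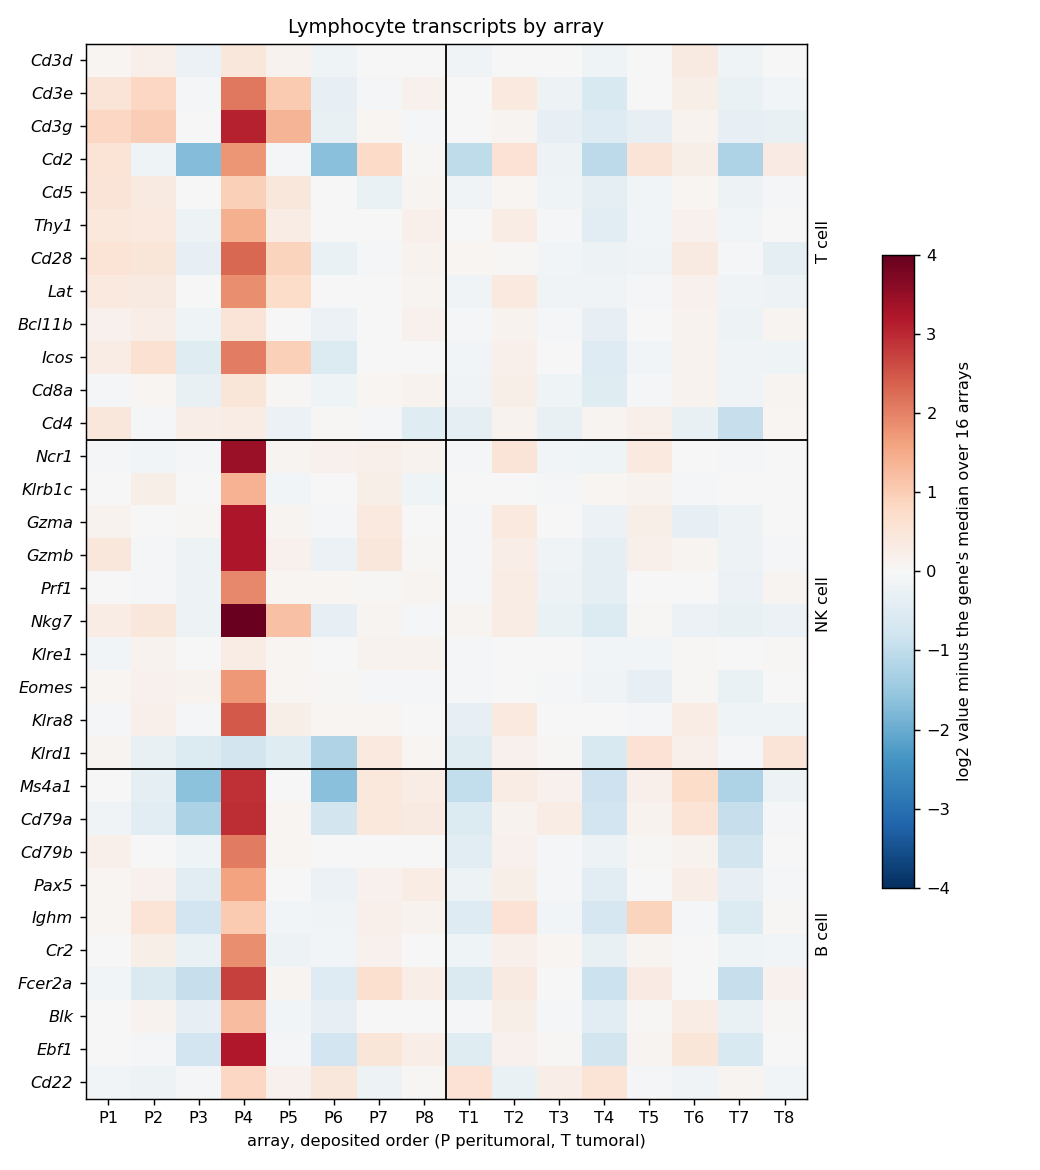
Distance (colour, log2) of each of the 32 members in each array from its own median over the 16 arrays, by array in deposited order (P, peritumoral; T, tumoral), with lines between the T, NK and B cell members and between the labels. Peritumoral 4 is the highest array in 30 rows, Cd3e, Cd3g, Cd28 and Icos are also high in peritumoral 1, 2 and 5, and Cd2 and Ms4a1 are low in peritumoral 3 and 6 and in tumoral 1, 4 and 7.

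Among the T cell members, the CD3 chain genes Cd3e and Cd3g were highest in the same 4 of the 8 peritumoral arrays. Cd3g, the gamma chain of CD3, measured 6.64, 6.77, 5.79, 8.89, 7.16, 5.51, 5.87 and 5.73 in peritumoral 1 to 8. In tumoral 1 to 8 it measured 5.81, 5.90, 5.47, 5.29, 5.46, 5.94, 5.47 and 5.50. Peritumoral 1, 2, 4 and 5 lay above every tumoral array, whereas peritumoral 3, 6, 7 and 8 lay within the tumoral range. Cd3e, the epsilon chain, measured 7.75, 8.05, 9.34 and 8.26 in those 4 arrays, against 7.61 at most in the other 12. Cd3d, the delta chain, moved little, with a range of 5.61 to 6.15 in tumoral and 5.57 to 6.23 in peritumoral arrays. Peritumoral 4 was the highest array for all 3 CD3 members, and the spread of Cd3d was much smaller than that of Cd3e and Cd3g.

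The promoter of Cd3d is shown because Cd3d and Cd3g start 1355 bases apart on opposite strands, and yet their spread across the arrays differed in size. It is the 250 bases before the annotated start on the plus strand, chr9:44981536-44981785 of GRCm38.p6, from RefSeq. The capitals mark the only match to the ETS-type motif AGGAAG, here on the reverse strand.
Cd3d: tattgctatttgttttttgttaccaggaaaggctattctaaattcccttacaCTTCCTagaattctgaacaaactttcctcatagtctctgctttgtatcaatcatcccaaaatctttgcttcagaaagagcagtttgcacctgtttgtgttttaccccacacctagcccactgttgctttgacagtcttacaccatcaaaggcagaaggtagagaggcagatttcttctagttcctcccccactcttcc
The motif was found, on either strand, in 4 of the 7 T cell members with a promoter entry (Cd3d, Cd3e, Cd5 and Lat). It was found in 29.5% of all 32851 promoter windows, and was among 10 motifs counted.

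The same 4 arrays were the highest 4 of all 16 for Cd3e, Cd3g, Cd5, Cd28 and Icos, 5 of 12 T cell members, against 0.471% of all genes. This set of arrays was chosen after the values were seen. After quantile normalization, a check also chosen then, it was the highest 4 for 7 members, against 0.436% of all genes. These were the same 5 with Thy1 and the NK cell member Nkg7. Cd28, the main co-stimulatory receptor of T cells, ranged from 5.76 to 6.46 (median 6.02) in tumoral and from 5.78 to 8.41 (median 6.43) in peritumoral arrays. Icos, an inducible co-stimulator, measured 7.17, 7.46, 8.92 and 7.81 in peritumoral 1, 2, 4 and 5 and 7.05 at most elsewhere. Cd5, a scavenger-receptor family protein that dampens T cell receptor signals, measured 7.91, 7.75, 7.37, 8.35, 7.86, 7.43, 7.15 and 7.51 in peritumoral 1 to 8. Its tumoral values ran from 7.03 to 7.49 with a median of 7.26. For Cd5 peritumoral 8 also exceeded every tumoral array, and peritumoral 3, 6 and 7 lay inside the tumoral range. In peritumoral 1, 2 and 5 the endothelial level was 0.17, 0.24 and 0.33 and the epithelial level 0.26, 0.05 and 0.19. The neutrophil level there was -0.07, 0.15 and 1.33, so it was high in peritumoral 5, the second highest array for Cd3e, Cd3g, Cd28, Icos and Lat, and the part of other cells in these values was not tested. Peritumoral 7, with its endothelial level of 1.34, had a T cell level of -0.02.

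The adaptor gene Lat, which links the receptor to downstream signalling, ranged from 6.56 to 7.17 in tumoral and from 6.74 to 8.61 in peritumoral arrays. Only peritumoral 4 and 5 (7.50) exceeded the tumoral range of Lat. Thy1, a surface glycoprotein of mouse T cells that fibroblasts also carry, ranged from 6.11 to 6.85 and from 6.34 to 7.96. It was above every tumoral array in peritumoral 1 (6.97), 2 (6.94) and 4 (7.96). Bcl11b, a transcription factor of T cell commitment, spanned 6.59 to 7.06 in tumoral and 6.67 to 7.43 in peritumoral arrays, a much smaller spread. Cd8a, a co-receptor chain of cytotoxic T cells, spanned 6.43 to 7.16 and 6.63 to 7.41, with 1 peritumoral array above the tumoral range.

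Cd4 and Cd2 departed from the other T cell members. Cd4, the co-receptor of helper T cells that some mouse dendritic cells and macrophages also carry, measured 8.61, 8.09, 8.43, 8.49, 7.93, 8.23, 8.11 and 7.69 in peritumoral 1 to 8. Its tumoral values ran from 7.26 to 8.37 with a median of 8.06. Peritumoral 4 was not set apart for Cd4, 0.13 below the highest array. Cd2, an adhesion molecule of T and NK cells that mouse B cells also carry, measured 8.49, 7.75, 6.19, 9.69, 7.90, 6.26, 8.69 and 7.97 in peritumoral arrays. In tumoral 1 to 8 Cd2 measured 6.92, 8.50, 7.72, 6.90, 8.46, 8.18, 6.69 and 8.28. Its 5 lowest values came from peritumoral 3 and 6 and tumoral 1, 4 and 7, so that the spread of Cd2 within each label was wider than the difference between labels.

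**Figure D2:**
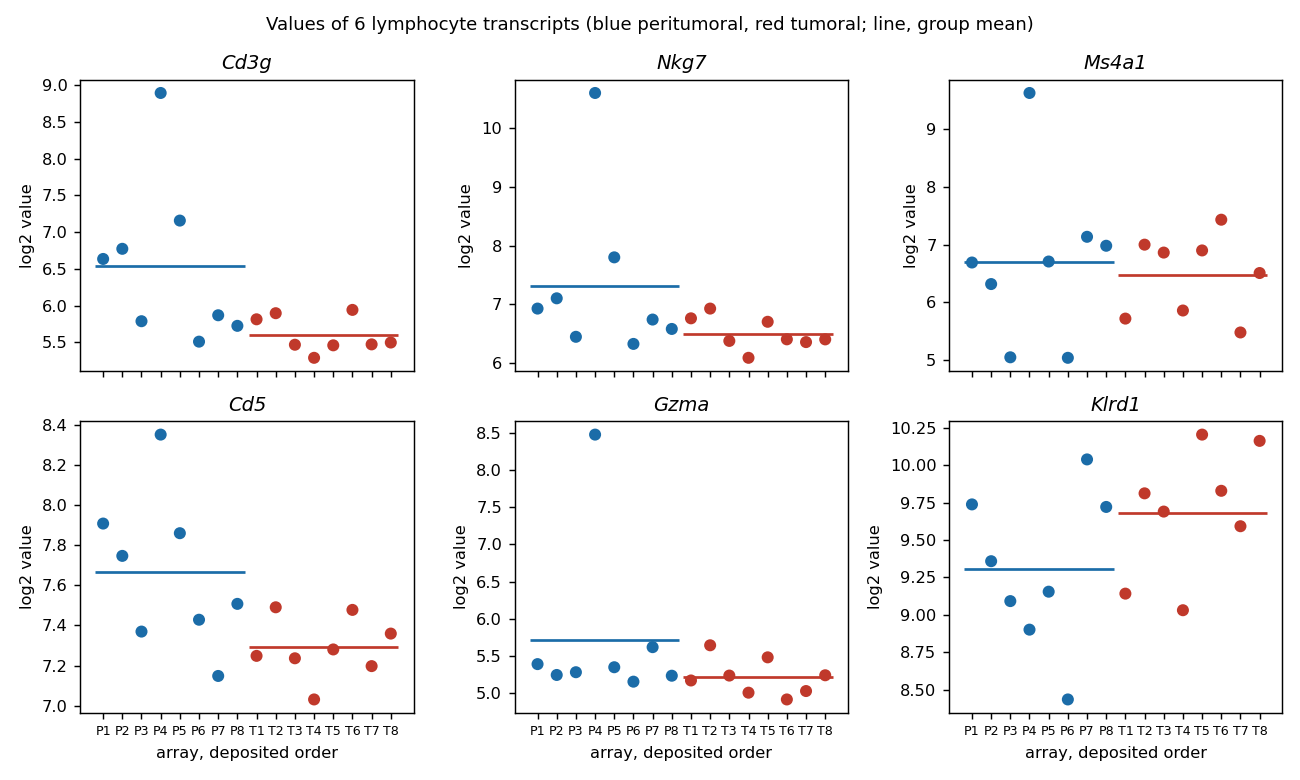
Log2 values (vertical axes, each with its own range) of 6 members in each of the 16 arrays in deposited order, peritumoral in blue and tumoral in red, with each group's mean as a line. Cd3g and Cd5 are high in several peritumoral arrays, Nkg7 and Gzma mainly in peritumoral 4, Ms4a1 has its lowest values under both labels, and Klrd1 is low in peritumoral 4.

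Most NK cell members were high in peritumoral 4 and nearly level elsewhere. Ncr1, which encodes the NK receptor NKp46, measured 8.42 in peritumoral 4. In the other 7 peritumoral arrays it ran to 5.16 at most, and in tumoral arrays from 4.78 to 5.46 with a median of 4.92. Gzma and Gzmb, the genes of granzymes A and B, measured 8.48 and 8.70 in peritumoral 4. Elsewhere Gzma reached 5.65 at most, and Gzmb 5.93. Prf1, the pore-forming protein perforin, measured 8.66 in peritumoral 4 against 7.05 at most in the other 15 arrays. Klra8, a receptor of the Ly49 family, measured 7.17 against 5.10 at most elsewhere. The Ly49 genes are near-identical in part, so the probe set of Klra8 may also read its relatives.

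Nkg7, a membrane protein of cytotoxic granules, was the NK cell member with a second high array. It measured 6.93, 7.10, 6.45, 10.60, 7.80, 6.33, 6.74 and 6.58 in peritumoral 1 to 8 and from 6.09 to 6.93 (median 6.40) in tumoral arrays. Peritumoral 2, 4 and 5 lay above every tumoral array, and after peritumoral 4 the highest was peritumoral 5, where Cd3g and Cd3e were also second. Eomes, a T-box transcription factor of NK cells and effector CD8 T cells, measured 5.59, 5.69, 5.65, 7.25, 5.59, 5.57, 5.44 and 5.46 in peritumoral arrays. Its tumoral range was 5.19 to 5.56, which 6 of the 8 peritumoral arrays exceeded. Klrb1c, a lectin-like receptor used to identify NK cells in C57BL/6 mice, measured 6.90 in peritumoral 4 and 5.32 to 5.74 in the other 15 arrays. Klre1, a further receptor of this family, stayed between 3.60 and 3.996 in all arrays, near the low end of the scale, where no detection can be claimed.

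Klrd1, the CD94 chain that pairs with NKG2 receptors, went the other way. It measured 9.74, 9.36, 9.09, 8.90, 9.16, 8.43, 10.04 and 9.72 in peritumoral 1 to 8. In tumoral 1 to 8 it measured 9.14, 9.81, 9.69, 9.03, 10.21, 9.83, 9.59 and 10.16. Peritumoral 4, the highest array for the other 9 NK cell members, had the second lowest value. Even the lowest Klrd1 value, 8.43, lay above the other NK cell members outside peritumoral 4, which reached 7.80 at most (Nkg7). Values of different probe sets need not share a scale, so this does not rank the amounts of transcript. Which cells gave the Klrd1 signal was not tested, so it may not track NK cell RNA here. The groups of Klrd1 overlapped over most of their range, and 6 of 8 tumoral arrays lay above the peritumoral median of 9.26.

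Promoters of Ncr1 and Gzmb are shown because these members shared the single high array and hold the same short motif. Each is the 250 bases before an annotated start in RefSeq on GRCm38.p6, chr7:4337465-4337714 on the plus strand for Ncr1 and chr14:56262335-56262584 on the minus strand for Gzmb. The capitals mark matches to the RUNX-type core TGTGGT on either strand, 2 in each window.
Ncr1: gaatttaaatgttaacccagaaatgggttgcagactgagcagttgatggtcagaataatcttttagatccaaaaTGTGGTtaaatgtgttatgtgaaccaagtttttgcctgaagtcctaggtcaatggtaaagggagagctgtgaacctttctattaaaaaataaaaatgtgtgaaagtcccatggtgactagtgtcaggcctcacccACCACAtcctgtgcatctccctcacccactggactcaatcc
Gzmb: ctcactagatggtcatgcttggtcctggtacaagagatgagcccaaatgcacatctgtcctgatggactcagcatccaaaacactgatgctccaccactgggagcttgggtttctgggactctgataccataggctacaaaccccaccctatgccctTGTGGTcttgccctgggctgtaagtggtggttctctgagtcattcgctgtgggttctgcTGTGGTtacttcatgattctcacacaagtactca
The core was found in 7 of the 9 NK cell members with a promoter entry (Gzma, Gzmb, Klrb1c, Klre1, Ncr1, Nkg7 and Prf1), or 66.7% of their 12 windows. It was found in 0 of the 7 T cell windows, in 2 of the 9 B cell windows and in 14% of all 32851 promoter windows. It was picked for display after 10 motifs had been counted, and a match of letters is a description and no evidence of binding. In these windows Klre1 holds the core and yet stayed nearly level across the arrays.

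The B cell members were highest in peritumoral 4 without exception, and differed among the other arrays in a way that the labels did not follow. Ms4a1, which encodes the B cell surface protein CD20, measured 6.69, 6.32, 5.05, 9.63, 6.71, 5.04, 7.14 and 6.98 in peritumoral 1 to 8. In tumoral 1 to 8 it measured 5.72, 7.001, 6.86, 5.86, 6.90, 7.43, 5.48 and 6.51. Cd79a, a signalling chain of the B cell receptor, measured 6.11, 5.81, 4.98, 9.19, 6.34, 5.50, 6.66 and 6.60 in peritumoral arrays and from 5.32 to 6.79 in tumoral arrays. For both genes the 5 lowest values of all 16 came from peritumoral 3 and 6 and tumoral 1, 4 and 7. Outside these 5 arrays and peritumoral 4, Ms4a1 lay between 6.32 and 7.43 under either label.

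Those 5 arrays stand 3 apart in the deposited order, at positions 3, 6, 9, 12 and 15. They were the lowest 5 for 7 members, namely Cd3d, Cd2, Ms4a1, Cd79a, Pax5, Ighm and Ebf1, against 3.6% of all genes. They were the highest 5 for 0 members, against 8.37% of all genes. After quantile normalization, an alternative chosen after the data were seen, 5 of the 7 stayed (Cd2, Ms4a1, Pax5, Ighm and Ebf1), against 4.19% of all genes. In the same 5 arrays the level of 9 monocyte and macrophage markers was 0.08 to 0.28, and that of the sorted myeloid markers -0.35 to -0.02. In the other arrays without peritumoral 4 these levels were -0.22 to 0.16 and -0.06 to 0.17. The array medians over all genes were 6.94 to 7.04 in the 5 arrays and 6.97 to 7.11 in the other 11. The pattern crossed both labels, and whether the titles match the sorted populations could not be checked from the values. No label names these arrays as a batch or a group, no test was made on them, and the part of cell makeup or scaling in the pattern was not tested.

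The remaining B cell members showed these patterns to different degrees, and Cd22 was not low in the 5 arrays. Ebf1, an early B cell transcription factor that stromal cells also use, measured 9.14 in peritumoral 4, 5.17 to 5.43 in the 5 arrays and 5.87 to 6.43 in the other 10. Fcer2a, the low-affinity IgE receptor CD23, measured 8.98 in peritumoral 4 and from 5.31 to 6.89 elsewhere. Cd79b, the partner of Cd79a, measured 10.63 in peritumoral 4 and lay between 7.82 and 8.73 in the other 15 arrays. Pax5, the factor that fixes B cell identity, measured 8.22 against 6.14 to 6.89 elsewhere. Cr2, a complement receptor of mature B cells, measured 7.03 against 4.88 to 5.39, and Blk, a Src-family kinase of B cells, 7.90 against 6.23 to 6.96. Cd22, an inhibitory lectin of B cells, was highest in peritumoral 4 at 9.05, but by only 0.26 over tumoral 1 (8.80). Tumoral 4 (8.78) and peritumoral 6 (8.67) came next. Tumoral 1, tumoral 4 and peritumoral 6 belong to the 5 arrays, where Cd22 ran from 8.17 to 8.80. In the other 10 it ran from 7.97 to 8.48.

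The promoter of Cd79a is shown as that of a B cell member with both patterns. It is the 250 bases before the start on the plus strand, chr7:24897247-24897496 of GRCm38.p6, from RefSeq, and the capitals mark its only match to the ETS-type motif AGGAAG.
Cd79a: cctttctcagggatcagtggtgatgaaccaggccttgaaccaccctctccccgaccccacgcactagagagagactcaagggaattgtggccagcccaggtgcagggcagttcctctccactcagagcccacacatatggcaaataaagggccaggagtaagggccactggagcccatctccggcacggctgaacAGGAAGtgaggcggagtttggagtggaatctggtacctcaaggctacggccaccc
Of the 6 B cell members with a promoter entry, Cd79a and Fcer2a held this motif. It was found in 33.3% of their 9 windows, near the 29.5% of all promoter windows, and was among the 10 motifs counted.

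Ighm, the constant region of the IgM heavy chain, was read by 3 probe sets that did not agree. The one taken by the rule ran from 6.72 to 8.51, with a difference of -0.17, or -0.04 without peritumoral 4. A second ran from 6.29 to 8.36, with a difference of -0.22, or -0.02 without that array. The third measured 4.74, 3.50, 3.61, 7.65, 6.97, 3.95, 6.05 and 4.95 in peritumoral 1 to 8, and 3.68, 5.43, 4.08, 4.02, 5.93, 4.05, 3.74 and 5.70 in tumoral 1 to 8. Its difference was -0.60, or -0.25 without peritumoral 4. All 3 were highest in peritumoral 4, but peritumoral 5 was second in the third probe set and below 10 other arrays in the first. Immunoglobulin heavy chain segments are alike in sequence, so which of them each probe set reads is uncertain.

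**Figure D3:**
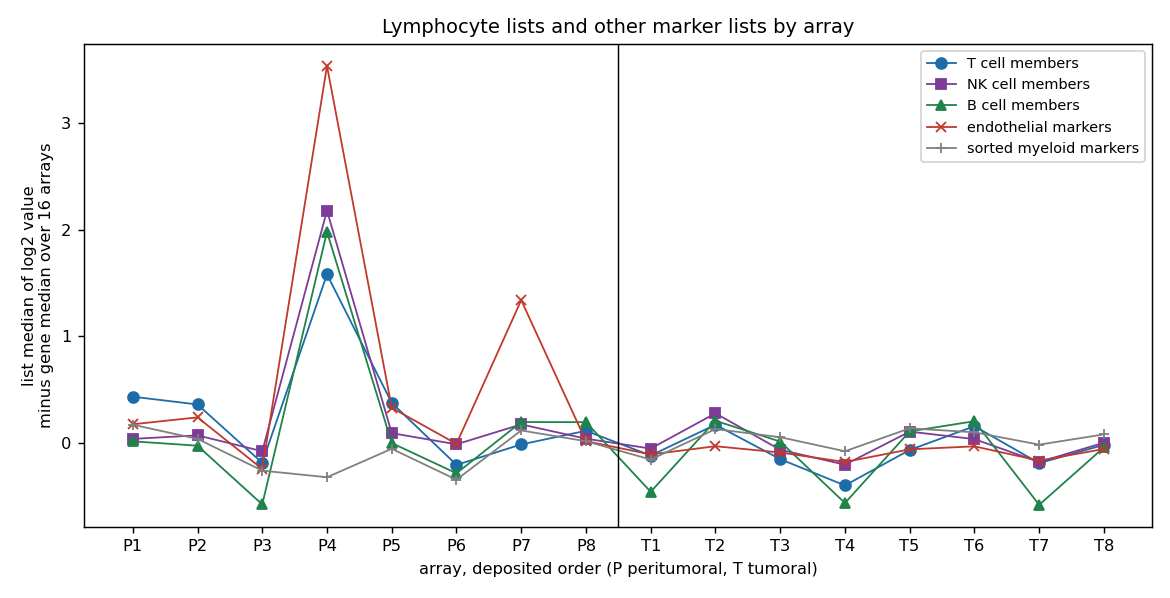
List level (log2, median over the genes of the distance from each gene's own 16-array median) in each array in deposited order, for the T, NK and B cell members, 12 endothelial markers and 11 markers of the sorted myeloid cells, with lines drawn only to guide the eye. All 3 lymphocyte lists and the endothelial list peak in peritumoral 4, the T cell list is also high in peritumoral 1, 2 and 5, and the endothelial list in peritumoral 7.

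Between the labels, no lymphocyte member passed the test. At an adjusted p under 0.05 limma called 0 of 32 members and 0% of 19938 genes, with and without peritumoral 4, as did the exact permutation test over all arrays. In 0 members were the groups free of overlap, against 0.0853% of all genes. Of the members 30 had a lower mean in tumoral arrays, against 58.3% of all genes, and 26 without peritumoral 4, against 60.4%. At an unadjusted p under 0.05 limma gave 4 members, all lower in tumoral arrays, against 5.9% of all genes for that direction and 5.6% for the other. Without peritumoral 4 limma again gave 4 members (Cd3g, Cd5, Lat and Eomes), against 9.79% of genes in either direction. The exact permutation test gave 5 over all arrays (Cd3g, Cd5, Lat, Klre1 and Eomes), against 12.6% of genes. The 4 over all arrays were the T cell members Cd3e, Cd3g, Cd5 and Lat. The smallest limma adjusted p of any member was 0.321 over all arrays and 0.373 without peritumoral 4.

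T cell members had a lower median in tumoral arrays with and without peritumoral 4. All 12 had a lower mean in tumoral arrays, with a median difference of -0.36, and 11 of 12 did so without peritumoral 4, with a median of -0.20, against medians of -0.02 and -0.03 over all genes. Cd3g measured 5.61 ± 0.24 in tumoral and 6.55 ± 1.12 in peritumoral arrays (SD, n = 8 each). Its difference was -0.94 (SE 0.36, 95% interval -1.70 to -0.17, limma adjusted p = 0.352, exact permutation p = 0.0162, or 0.283 adjusted over all genes). Without peritumoral 4 it was -0.60 (limma adjusted p = 0.373). Cd5 measured 7.29 ± 0.15 and 7.66 ± 0.38, a difference of -0.37 (limma adjusted p = 0.321) that was -0.28 without that array (limma adjusted p = 0.413). No tumoral array exceeded the peritumoral median of Cd3g or Cd5, but the groups of both overlapped.

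Cd3e differed by -0.59 and Lat by -0.47, and by -0.37 and -0.26 without peritumoral 4 (limma adjusted p = 0.417 and 0.416 over all arrays). The differences of Cd28, Icos and Thy1 were -0.51, -0.45 and -0.34, and without that array -0.25, -0.21 and -0.18. For Cd8a, Bcl11b and Cd3d they were small, at -0.10, -0.13 and -0.07, and without that array -0.04, -0.06 and -0.01. Cd4 differed by -0.20, and by -0.15 without that array. The difference of Cd2 was -0.16 over all arrays and turned to 0.10 without it, with a 95% interval of -0.75 to 0.95. Endothelial markers, with 12 of 12 lower and 11 of 12 without peritumoral 4, had median differences of -0.80 and -0.37, in the same direction as the T cell members. The fibroblast markers did so too, with 12 of 12 lower either way and medians of -0.48 and -0.29. Epithelial markers had 14 of 14 lower either way, with medians of -0.53 and -0.25. Neutrophil markers had 10 of 10 lower, and 9 of 10 without that array, with medians of -0.49 and -0.26. The part of these cells in the result was not tested.

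The NK cell differences were carried largely by peritumoral 4. Of the 10 members 9 had a lower mean in tumoral arrays with and without that array, and their median moved from -0.37 to -0.08. Ncr1 measured 5.01 ± 0.25 in tumoral and 5.44 ± 1.21 in peritumoral arrays (SD, n = 8 each), and its difference moved from -0.43 to -0.002. For Gzma, Gzmb and Prf1 it moved from -0.50, -0.51 and -0.30 to -0.11, -0.12 and -0.06. The difference of Nkg7 was -0.81 over all arrays and -0.34 without peritumoral 4. Eomes differed by -0.37 and -0.16, with the smallest exact permutation p of any member (0.00839, or 0.232 adjusted over all genes). Without peritumoral 4 the exact permutation p of Eomes was 0.0191, or 0.393 adjusted. Klra8 moved from -0.37 to -0.08, Klrb1c from -0.18 to -0.01 and Klre1 from -0.11 to -0.08. Klrd1 was the exception, at 9.68 ± 0.43 in tumoral and 9.31 ± 0.52 in peritumoral arrays. Its difference was 0.38 (95% interval -0.08 to 0.83, limma adjusted p = 0.512), or 0.32 without peritumoral 4. The cells that gave the Klrd1 signal are not known from these arrays.

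The median difference of the B cell members lay near 0 once peritumoral 4 was left out. It was -0.27 over all arrays, with 9 of 10 lower, and -0.02 without that array, with 6 lower and 4 higher. Ms4a1 measured 6.47 ± 0.70 in tumoral and 6.69 ± 1.44 in peritumoral arrays (SD, n = 8 each). Its difference of -0.22 turned to 0.20 without peritumoral 4, with a 95% interval of -0.56 to 0.96. Cd79a turned from -0.30 to 0.10 and Blk from -0.10 to 0.07, whereas Ebf1 moved from -0.43 to -0.01, Fcer2a from -0.39 to -0.03 and Cr2 from -0.27 to -0.03. Cd79b kept a difference of -0.15 from -0.41, Pax5 -0.08 from -0.28 and Ighm -0.04 from -0.17. The difference of Cd22 was 0.001, or 0.10 when that array was left out. Without peritumoral 4 the 95% interval ran from -0.45 to 0.65 for Cd79a and from -0.54 to 0.49 for Fcer2a, so differences of either sign within those unadjusted bounds are not excluded by these arrays.

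**Figure D4:**
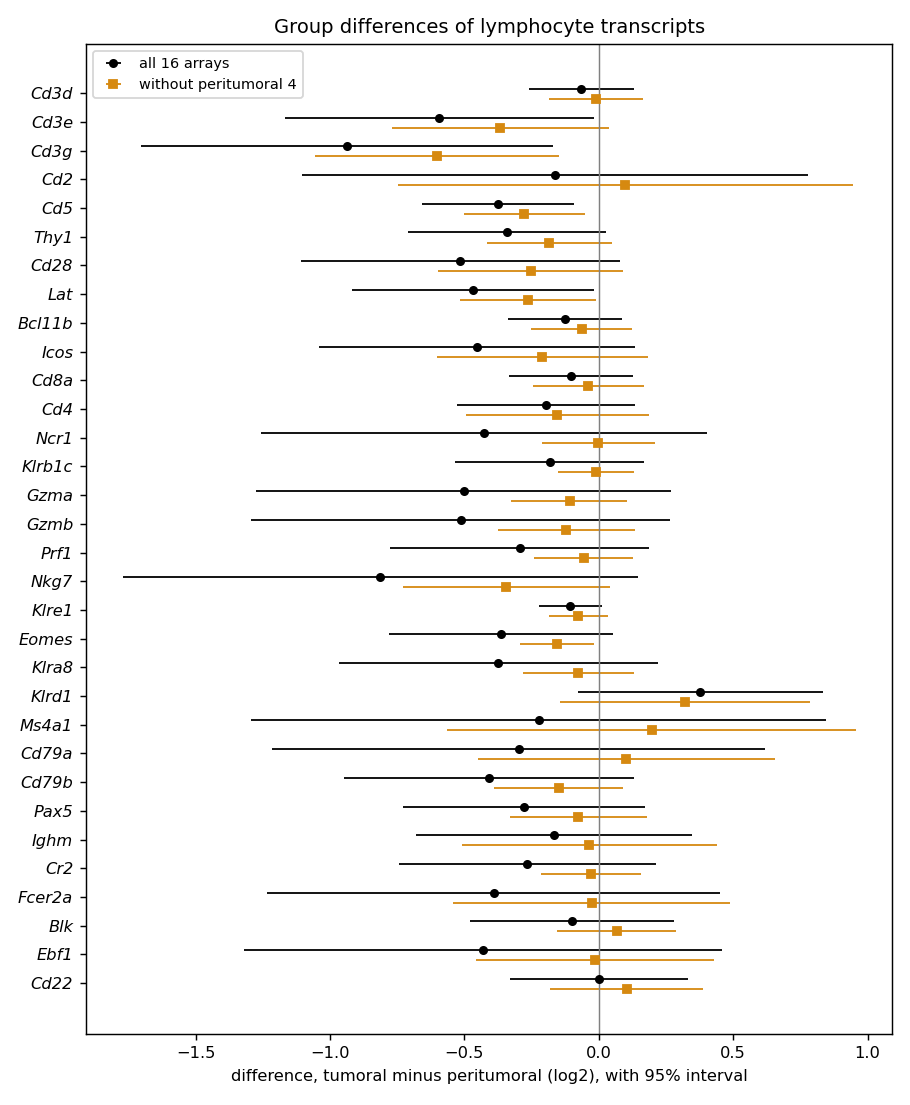
Difference of each of the 32 members, tumoral minus peritumoral (log2, horizontal axis), with its 95% interval from limma, over all 16 arrays (black circles) and without peritumoral 4 (orange squares). The intervals of Cd3e, Cd3g, Cd5 and Lat exclude 0 over all arrays, unadjusted for the number of genes, those of Cd3g, Cd5, Lat and Eomes without peritumoral 4, and most NK and B cell differences move towards 0.

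Further genes of the same cells followed the members of their lineage in part. Of 23 measured genes of T cell signalling and identity 21 had a lower mean in tumoral arrays, against 58.3% of all genes. The median difference was -0.26, or -0.16 without peritumoral 4. In 8 of the 23 genes peritumoral 1, 2, 4 and 5 were the highest 4 arrays, against 0.471% of all genes. By unadjusted p the leading ones were Cd27, a co-stimulatory receptor (-0.52), the transcription factor Lef1 (-0.50) and Trat1, an adaptor of the T cell receptor (-0.49). Without peritumoral 4 they differed by -0.36, -0.31 and -0.29. Trat1 measured 4.15, 4.47, 5.69 and 4.44 in peritumoral 1, 2, 4 and 5, and 3.94 at most elsewhere. Of 21 further NK cell genes 16 had a lower and 5 a higher mean, with a median of -0.15. Without peritumoral 4 the split was 15 and 6, against 60.4% of all genes lower, with a median of -0.07. In 2 of the 21 genes peritumoral 1, 2, 4 and 5 were the highest 4 arrays, against 0.471% of all genes. Ctsw, a protease of cytotoxic cells, differed by -0.45 and Itga2, an integrin chain of mouse NK cells, by -0.60, or by -0.26 and -0.33 without peritumoral 4. Klrk1, the activating receptor NKG2D, was higher in tumoral arrays by 0.43, and by 0.38 without peritumoral 4. It ran from 8.21 to 8.84 in tumoral and from 7.34 to 8.62 in peritumoral arrays, lowest in peritumoral 6, as was Klrd1.

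Of 20 further B cell genes 14 had a lower and 6 a higher mean, against 58.3% of all genes lower. Without peritumoral 4 they were split 10 and 10, against 60.4% of all genes lower. The adaptor gene Blnk, which myeloid cells also express, differed by 0.39, Tnfrsf13c, the receptor of the B cell survival factor BAFF, by -0.36, and Cd72, a B cell co-receptor, by 0.21. Without peritumoral 4 these differences were 0.32, -0.25 and 0.10. Blnk (9.27) and Cd72 (10.19) had their lowest values in peritumoral 4, where every B cell member was highest. Which cells gave their signal was not tested. The 5 arrays standing 3 apart were the lowest 5 for 9 of these 20 genes, against 3.6% of all genes. For the 3 lists of further genes limma called 0 members at an adjusted p under 0.05, with 7 of 23, 4 of 21 and 1 of 20 at an unadjusted p under 0.05, against 11.5% of all genes. Their adjusted p-values began at 0.362 for T cell (Cd27), 0.351 for NK cell (Klrk1) and 0.272 for B cell genes (Blnk).

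Variable segments of the antigen receptor genes were measured in small number. All 6 measured variable segments of the T cell receptor alpha chain had a lower mean in tumoral arrays, against 58.3% of all genes. Their median difference was -0.16, or -0.13 without peritumoral 4. Peritumoral 4 was the highest array for 3 of the 6. Trav12-2 and Trav7d-4 reached 3.17 and 4.125 at most, near the low end of the scale, where no detection can be claimed. Trbv1, the single beta chain segment measured, was highest in peritumoral 2 and differed by -0.18, or -0.16 without peritumoral 4. The gamma and delta segments Trgv1 and Trdv2-2 differed by -0.19 and -0.11, and by -0.04 each without that array. Of 8 immunoglobulin kappa variable segments 7 had a lower mean, against 58.3% of all genes, with a median of -0.52. Without peritumoral 4 it was 6, against 60.4% of all genes, with a median of -0.19. All 8 were highest in peritumoral 4, against 15% of all genes, but some by very little (Igkv4-55 by 0.002). In 2 of the 8 that array lay more than 1 log2 unit above every other, against 2.74% of all genes. The kappa segments differed widely within each label, and as an example a single segment ran from 5.15 to 9.07 in tumoral and from 4.98 to 9.59 in peritumoral arrays. limma called 0 of these 17 segments, with 3 at an unadjusted p under 0.05, against 11.5% of all genes, and since segments resemble each other their probe sets may share signal.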

How the data were processed

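Amplified, biotin-labelled RNA of the sorted cells was hybridised to Affymetrix arrays, per the labels' protocols. The authors deposited log2 values of 28853 probe sets in 16 arrays. Their scale was read from the values, which run from 2.31 to 14.33. For log base, background correction and normalization the sources used here give no statement, and the array medians were 6.75 to 6.95. Precision is limited by how many arrays there are.

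Probe sets with a single symbol in the platform annotation (21789) were reduced to the one with the highest mean for each of 19938 genes. The 32 member symbols are current in RefSeq. limma 3.58.1 in R 4.3.3 was fitted to all genes with the label as the only term, with Benjamini-Hochberg adjustment over all genes at 0.05 and no filter on low values. An exact two-sided permutation test of the mean difference used all 12870 assignments of the labels (6435 without peritumoral 4). On simulated data with independent normal noise and no outlying array, limma recovered 95% of 200 genes changed 2-fold. These were drawn from all 19938 genes, so the share does not describe members with a wide spread. Cd3g, for example, differed by -0.94 (SE 0.36) and had a limma adjusted p of 0.352. Alternatives were a replicate block, quantile normalization, median centring, a filter on low values, the mean of all probe sets, other variance models, array weights and arrays left out.

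The members and lists were chosen with earlier results of these data known. Named are all members, the 3 further genes of each lineage with the smallest limma p, and the sorting markers. The receptor segments and the repeated array sets were singled out after their values were seen. Marker lists of innate lymphoid cells type 2, alveolar macrophages, plasmacytoid cells, and mast cells and basophils were also measured. Their median differences were -0.24, -0.09, -0.10 and -0.15, and -0.15, -0.05, -0.04 and -0.08 without peritumoral 4. Of their 6, 7, 7 and 8 measured genes limma called 0, with 2 at an unadjusted p under 0.05, against 11.5% of all genes. Peritumoral 4 was the highest array for 7 of 7 alveolar macrophage markers (level 1.17), against 15% of all genes.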

Additional observations from a re-analysis of the deposited data

Results flagged for a closer look

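The values formed 64 sets, 32 members in each label with 8 arrays. In 20 sets the gap of an array to its neighbour took up more of its group's range than Dixon's 95% critical value allows. Chance gives about 1 in 20 for independent sets, but these sets share the same arrays and are not independent. The share of such sets over all genes was not computed, and peritumoral 4 was the highest array for 15% of all genes. In 19 of the 20 flagged sets the array was peritumoral 4, at the high end, which had already been singled out. For the T cell members the share of the range was 0.609 for Thy1, 0.534 for Cd28 and 0.592 for Lat. For the NK cell members it was 0.911 for Ncr1, 0.736 for Klrb1c, 0.86 for Gzma, 0.801 for Gzmb, 0.857 for Prf1, 0.655 for Nkg7, 0.861 for Eomes and 0.868 for Klra8. For the B cell members it was 0.543 for Ms4a1, 0.601 for Cd79a, 0.833 for Cd79b, 0.657 for Pax5, 0.77 for Cr2, 0.573 for Fcer2a, 0.701 for Blk and 0.683 for Ebf1. The remaining one was Cd3d in the tumoral arrays, where tumoral 6 (6.15) was the highest with a share of 0.622.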

How the results depend on the processing

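No alternative brought a lymphocyte member past the threshold. Over 776 values of 32 members under up to 25 alternatives the smallest adjusted p was 0.111, for Cd5 without peritumoral 7. The count of all genes called was 0 and became 88 without peritumoral 4 and 7 together and 199 at an adjusted p under 0.25. It ran from 0 to 128 when each array was left out, with 128 without peritumoral 7 and 20 without peritumoral 8, and 0 members among them. The median difference ran from -0.42 to -0.20 for T cell, from -0.42 to -0.08 for NK cell and from -0.41 to -0.02 for B cell members over the arrays left out, the value nearest 0 in each case being that without peritumoral 4. Without peritumoral 4 and 7 together the B cell median was 0.07. With only genes above the median mean the NK cell median was 0.38, because Klrd1 is then the only NK cell member left.

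Differences turned upward without peritumoral 4 and 7 together for Cd2 (0.28), Ncr1 (0.022), Klrb1c (0.024), Ms4a1 (0.34), Cd79a (0.21), Cr2 (0.004), Fcer2a (0.11), Blk (0.081) and Ebf1 (0.088). Over the arrays left out one at a time they ran from -0.40 to 0.10 for Cd2, from -0.46 to 0.20 for Ms4a1, from -0.50 to 0.10 for Cd79a, from -0.16 to 0.067 for Blk and from -0.065 to 0.10 for Cd22. Cd22 was -0.01 after quantile normalization. The cause was not tested. With the replicate number of the titles as a block, 0 members were called and the adjusted p of Cd5 was 0.451. The deviations of arrays with the same number had correlations of -0.56 to 0.29. For 1 of 8 numbers the best match was the array of the same number. The labels name no animal, so the numbers were not taken as pairs. These correlations cannot exclude that arrays of the same number came from the same animal, since array patterns that cross the labels also enter them. Values near probe background cannot be ordered.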
